A study of Mus musculus with 4 samples.

Results

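The cytotoxic and NK lineage genes are 10 genes of granules and proteases, a receptor, a chemokine and transcription factors that are typical of cytotoxic T cells, natural killer (NK) cells and innate-like T cells. They were chosen by name, with earlier results of these arrays known, and were measured by the non-control probes whose design gene name equals the symbol. The array carried 11 such probes out of 41174, for 9 of the 10 genes, and no probe carried the name Zbtb16. The genes are Nkg7, Prf1, Gzma, Gzmb and Ctsw (granule and protease genes), Klrd1 (receptor), Ccl5 (chemokine), and Tbx21, Eomes and Zbtb16 (transcription factors). Members with lower signal in the knockout are set apart from the rest on the same values that are given here, so that split is a description.

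RNA came from sorted thymocytes that carried both CD4 and CD8 (double-positive, DP), the stage that precedes the choice between the CD4 and CD8 lineages. The control group, USP8ff, came from untreated mice with loxP-flanked Usp8 alleles and no Cre. The other group, USP8ff_CD4Cre, came from untreated mice with the same alleles and Cre driven by Cd4 regulatory sequences, which are active from about the DP stage onward. Usp8 encodes a deubiquitinase that acts on endosomal sorting. The labels describe littermates of 6 to 12 weeks, matched for sex, and each of the 4 samples pooled 2 mice, giving 2 samples per group from 8 mice. A group with Cre alone was not part of the design, so what Cre does by itself and what the deletion does cannot be told apart. Each sample is 1 array, and with 4 arrays the precision is limited.

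Killer lymphocytes store perforin, which opens pores in a target cell, together with granzymes, the proteases that enter and cut proteins there. The T-box factors T-bet (Tbx21) and Eomesodermin (Eomes) drive this program in NK cells and CD8 T cells, and PLZF (Zbtb16) marks innate-like T cells such as NKT cells. Most conventional DP thymocytes have not yet started it, although interleukin-15 signals through Il2rb raise several of these genes in later stages.

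All signals are log2 values relative to the 75th percentile of the array, so 0 is a fairly bright spot and -4 is near the dimmest spots that the scanner software called well above background. The lowest such signal was between -4.49 and -3.87 on the 4 arrays. Of the arrays' probes, 45.0% to 48.9% were well above background. All 14 of 14 DP-stage markers, among them Rag1, Cd4 and Cd8a, were above background on every array. Detection alone does not identify the stage, as 11 of 12 mature T cell markers were also above background on each USP8ff array. The targeted gene, Usp8, gave log2 signals of -0.23 and -0.40 in the USP8ff pools, against -1.03 and -1.23 in the USP8ff_CD4Cre pools, on its probe above background. Its groups did not overlap, an arrangement that 16.3% of all genes tested had in this direction. The difference was -0.81 ± 0.13 (SE, n = 2 per group), with a limma adjusted p of 0.60. Each SE and interval given here is limma's, which draws on the spread of all genes as well as on the 2 pools per group. No source used here places that probe inside or outside the floxed part.

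The probes that carry the results are shown by their first 30 of 60 bases, 5′ to 3′ as in the array design, since each value below is the brightness of 1 such spot. The first 4 belong to genes with less signal in USP8ff_CD4Cre and the last 2 to genes with no less signal.
Nkg7 probe 1: cagcagggtcatcaggatgtttggagcctg
Nkg7 probe 2: tctccatattagtggctatggcagtgtaca
Prf1: gaggtgacatgtgagctaaaccacggcagg
Ctsw: ggaaacaacacctgtggagtcaccaagtat
Gzma: gatgaaaaacactataattttcatcctgta
Tbx21: gaggggggaggctatttattgtagagagtg
On mm9, the build of the array design, Nkg7 probe 1 lies on chromosome 7 from 50693482 to 50693541 and probe 2 from 50693148 to 50693207, both matching the transcript NM_024253. The Prf1 probe lies on chromosome 10 from 60766528 to 60766587, the Ctsw probe on chromosome 19 from 5465371 to 5465430, the Gzma probe on chromosome 13 from 113885986 to 113886045 and the Tbx21 probe on chromosome 11 from 96959417 to 96959476. Exon and UTR annotation of this build was not used here.

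Of the 9 genes with a probe, 6 were measured well enough to enter the comparison, where a probe had to be well above background on each array of 1 group or the other: Nkg7, Prf1, Gzma, Ctsw, Ccl5 and Tbx21. These 6 each had a probe above background on all 4 arrays. Klrd1, Gzmb and Eomes did not enter. In 3 of the 6 (Nkg7, Prf1 and Ctsw) both USP8ff_CD4Cre arrays lay below both USP8ff arrays. The same arrangement held for 16.3% of all 13062 genes tested. In Gzma and Tbx21 both USP8ff_CD4Cre arrays lay above, as in 24.3% of all genes, and in Ccl5 the groups overlapped, as in 59.4%. Under median scaling the Gzma groups overlapped too. In limma, 0 of 13062 genes (0%) passed an adjusted p of 0.05, so no member passed, and 970 genes had an unadjusted p under 0.05.

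**Figure D1:**
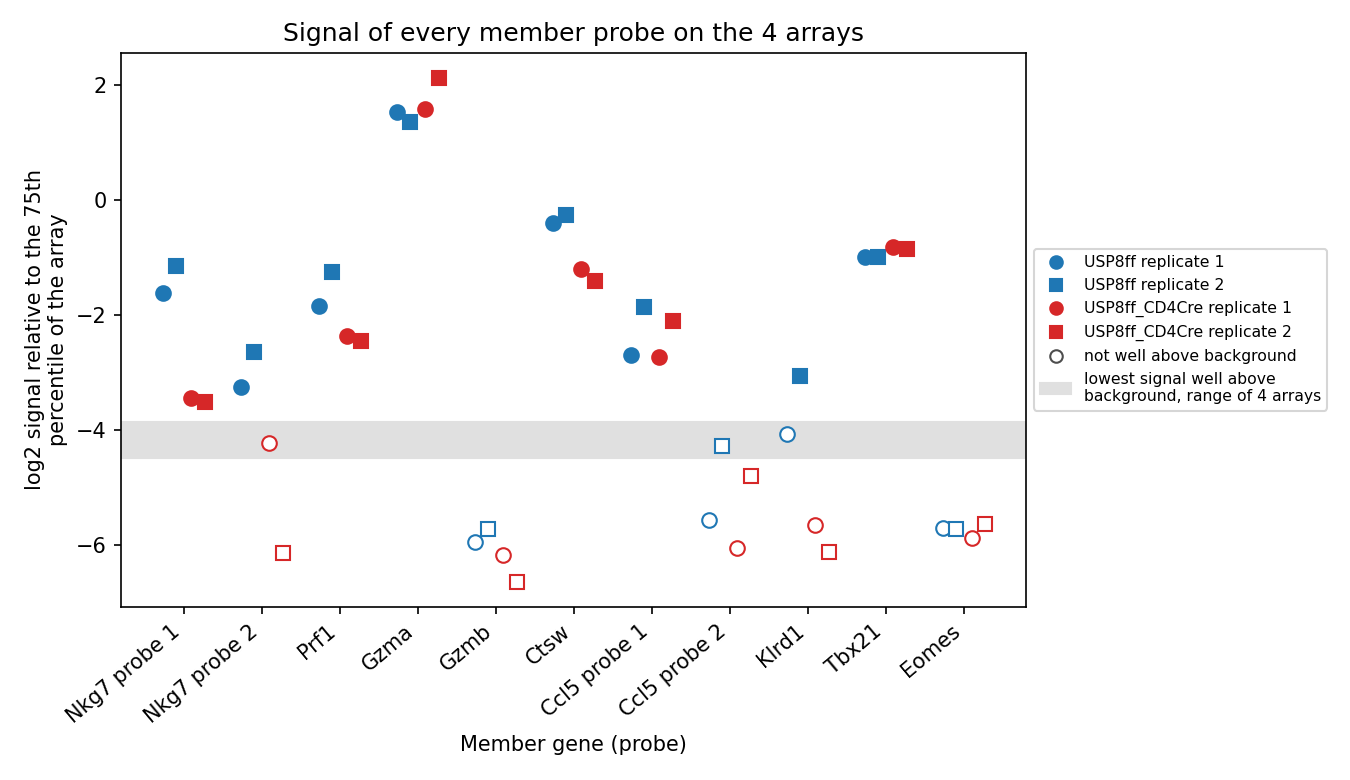
Log2 signal of every member probe on each array, relative to the array's 75th percentile, with USP8ff in blue and USP8ff_CD4Cre in red. Open symbols were not well above background, and the grey band spans the lowest signals well above background, from -4.49 to -3.87. Nkg7, Prf1 and Ctsw lie lower in both USP8ff_CD4Cre arrays, while Gzma and Tbx21 do not.

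Nkg7 encodes a membrane protein of cytotoxic granules and had the largest difference of the measured members. The signals of probe 1 before scaling were 192 and 268 in USP8ff, as compared with 49.0 and 49.2 in USP8ff_CD4Cre, which on the log2 scale were -1.62, -1.15, -3.44 and -3.51. The USP8ff_CD4Cre pools were nearly equal, the USP8ff pools were farther apart, and the groups lay well clear of each other. The scanner's own error for these spots was 10.4% to 19.5% of the signal. The log2 difference was -2.09 ± 0.18 (SE, n = 2 per group, 95% interval -2.55 to -1.63), which left 23.4% of the control signal. Of all genes tested, 2 had a larger decrease, and its limma adjusted p was 0.29. With normexp background correction, which here added an offset of 50 to each spot, the difference was -1.12. An offset as large as the USP8ff_CD4Cre signals shrinks a log2 difference by itself. Its part and that of background removal were not separated.

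Nkg7 probe 2, which targets another stretch of the same transcript, was dimmer. Its log2 signals were -3.26 and -2.64 in USP8ff against -4.22 and -6.15 in USP8ff_CD4Cre, both of these not well above background. The signal was therefore at least 2.50-fold lower in USP8ff_CD4Cre, with group means of -2.95 and -5.19. The bound sets the USP8ff mean against a floor for each USP8ff_CD4Cre array, which is its lowest signal well above background or, where that is higher, the probe's own signal. This bound, also used for other genes below, concerns the group means and leaves out the spread between pools and the scanner's error. Both probes thus had the same direction, although probe 2 was kept through USP8ff alone, the group where it was higher. Probe 1 was also the single member probe among the 78 rows of the authors' deposited table, which lists it as 4.25-fold down with p = 0.0129. That table does not state its reference genotype, and it comes from the same series, so it is no separate evidence.

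Prf1 encodes perforin itself. Its log2 signals were -1.85 and -1.26 in USP8ff against -2.36 and -2.46 in USP8ff_CD4Cre. The lower USP8ff pool was nearer to the USP8ff_CD4Cre pools than the other was, and the groups did not overlap. The difference was -0.86 ± 0.21 (SE, n = 2 per group, 95% interval -1.40 to -0.31), or 55.2% of the control signal, with a limma adjusted p of 0.66. It was -0.56 without USP8ff replicate 2 and -0.47 with normexp and the same offset. Among the members lower in USP8ff_CD4Cre, Prf1 had the smallest gap between groups, and Ccl5 was the nearest member on the other side.

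Ctsw encodes cathepsin W, a protease found mainly in cytotoxic lymphocytes. Its log2 signals of -0.40 and -0.26 in USP8ff stood above those of -1.20 and -1.41 in USP8ff_CD4Cre. Both pools of each group were close together, and the gap between the groups was wider than either spread. The difference was -0.98 ± 0.13 (SE, n = 2 per group, 95% interval -1.30 to -0.65), which left 50.8% of the control signal, with a limma adjusted p of 0.42. Ctsw ranked 16 of 13062 genes by p, against 3 for Nkg7 and 177 for Prf1.

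Gzma, the gene of granzyme A, had the brightest spot among the member probes and was not lower. Its log2 signals were 1.53 and 1.35 in USP8ff against 1.59 and 2.12 in USP8ff_CD4Cre. Replicate 2 of USP8ff_CD4Cre stood above the other arrays, and replicate 1 lay just above the USP8ff pools. The difference was 0.42 ± 0.20 (SE, n = 2 per group, 95% interval -0.098 to 0.93), with a limma adjusted p of 0.70, and 0.15 without USP8ff_CD4Cre replicate 2. The interval runs from a slight decrease to an increase, and it excludes a decrease of the size seen for Prf1 or Ctsw.

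On none of the arrays was Gzmb, the gene of granzyme B, well above background, with log2 signals of -5.96, -5.73, -6.17 and -6.64 in the order USP8ff and then USP8ff_CD4Cre. The scanner error was 66.3% to 99.6% of these signals, so no difference can be read from this probe.

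Ccl5 encodes a chemokine that cytotoxic cells store and release. The log2 signals of its bright probe were -2.70 and -1.87 in USP8ff against -2.73 and -2.10 in USP8ff_CD4Cre. In both groups replicate 1 was low and replicate 2 high, and the groups overlapped. The difference was -0.13 ± 0.34 (SE, n = 2 per group), with a 95% interval of -1.001 to 0.75 and a limma adjusted p of 0.94. A decrease as large as that of Prf1 lies within this interval. Its sign turned when USP8ff replicate 2 was left out (0.29) or USP8ff_CD4Cre replicate 1 was (0.19). The second Ccl5 probe was below that level on all 4 arrays.

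Klrd1 encodes CD94, the partner chain of the NKG2 receptors, and was near the limit of detection. Its log2 signals were -4.08 and -3.07 in USP8ff against -5.66 and -6.12 in USP8ff_CD4Cre. Only USP8ff replicate 2 was well above background, and both USP8ff_CD4Cre arrays lay below both USP8ff arrays. The group means were -3.58 and -5.89, and no fold is given because 3 of the 4 arrays did not measure the probe. Without the filter on dim probes, 11.6% of 28472 genes had this arrangement.

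Tbx21, the gene of T-bet, was nearly level across the arrays. Its log2 signals were -0.99 in both USP8ff pools, and -0.81 and -0.86 in the USP8ff_CD4Cre pools. The USP8ff_CD4Cre values were slightly higher and close together. The difference was 0.15 ± 0.10 (SE, n = 2 per group, 95% interval -0.11 to 0.42), with a limma adjusted p of 0.74, so the interval excludes a decrease of more than 0.11. Eomes, the gene of the related factor Eomesodermin, had log2 signals between -5.89 and -5.64 and was well above background on none of the arrays.

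**Figure D2:**
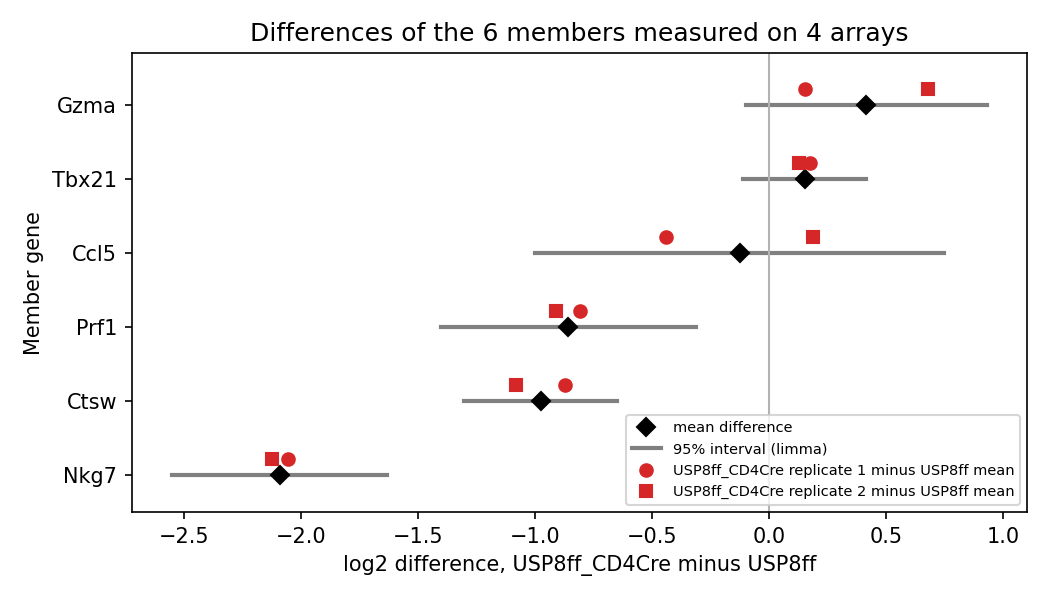
Log2 difference between USP8ff_CD4Cre and USP8ff for the 6 members compared, with the limma 95% interval (grey bar), the mean (diamond) and each USP8ff_CD4Cre array minus the USP8ff mean (red symbols). Nkg7 lies at -2.09, Ctsw and Prf1 lie near -0.98 and -0.86, and the intervals of Ccl5, Tbx21 and Gzma include 0.

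The 2 sides of the set can also be compared within each array, where scaling between arrays cancels. With the USP8ff mean set to 0, the log2 ratio of Prf1 to Gzma was -0.38 and 0.38 in the USP8ff pools and -0.96 and -1.59 in the USP8ff_CD4Cre pools. The ratio of Prf1 to Tbx21 was -0.29 and 0.29 in USP8ff against -0.98 and -1.04 in USP8ff_CD4Cre. For Ctsw to Tbx21 the USP8ff_CD4Cre values were -1.05 and -1.21, and for Nkg7 to Tbx21 they were -2.23 and -2.26. The direction of these ratios is fixed by how the members were set apart, so they add sizes and no further evidence.

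Promoter sequence was matched by symbol for 6 of the 10 members in the RefSeq table (GRCm38.p6). The 250 bases before the start are printed for Nkg7 and Prf1, which were lower, and for Gzma and Tbx21, which were not. Capitals mark matches on either strand to 3 motifs: TCACAC, the core of T-box sites, TGTGGT, the core of RUNX sites, and TTCNNNGAA, the STAT site. On the opposite strand the T-box core reads GTGTGA and the RUNX core ACCACA.
Nkg7, chr7:43436888-43437137, plus strand: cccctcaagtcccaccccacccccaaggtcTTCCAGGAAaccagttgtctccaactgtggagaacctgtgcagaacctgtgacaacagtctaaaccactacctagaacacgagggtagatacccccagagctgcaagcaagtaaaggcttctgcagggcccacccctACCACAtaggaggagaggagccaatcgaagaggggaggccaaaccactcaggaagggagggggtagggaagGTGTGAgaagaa
Prf1, chr10:61297586-61297835, plus strand: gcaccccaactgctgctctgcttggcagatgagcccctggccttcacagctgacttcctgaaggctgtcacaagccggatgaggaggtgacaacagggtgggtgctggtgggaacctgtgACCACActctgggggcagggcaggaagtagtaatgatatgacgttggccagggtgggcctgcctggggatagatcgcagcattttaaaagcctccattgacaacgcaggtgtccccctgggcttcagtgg
Gzma, chr13:113100982-113101231, minus strand: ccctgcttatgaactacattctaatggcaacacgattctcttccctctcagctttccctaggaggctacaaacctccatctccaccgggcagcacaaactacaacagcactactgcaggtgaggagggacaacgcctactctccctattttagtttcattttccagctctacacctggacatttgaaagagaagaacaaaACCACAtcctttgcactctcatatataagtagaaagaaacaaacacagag
Tbx21, chr11:97115332-97115581, minus strand: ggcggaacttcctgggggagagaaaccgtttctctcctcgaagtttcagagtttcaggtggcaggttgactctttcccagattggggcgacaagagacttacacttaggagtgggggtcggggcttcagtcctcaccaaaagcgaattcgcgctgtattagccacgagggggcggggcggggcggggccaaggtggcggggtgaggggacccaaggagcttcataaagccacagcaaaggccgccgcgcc
Nkg7 held 1 match to each motif, with the STAT match from -220 to -212, the RUNX match from -83 to -78 and the T-box match from -12 to -7, counted from the transcript start. Prf1 held 1 RUNX match from -130 to -125, Gzma 1 RUNX match from -50 to -45, and Tbx21 none of the 3 motifs. No matches overlapped each other. Of 32851 promoters in the table, 12.3% held the T-box core, 14.0% the RUNX core and 7.02% the STAT motif in the same window. A RUNX core was thus present in Nkg7 and Prf1, which were lower, and in Gzma, which was not. The promoter of Gzmb, not printed, held RUNX matches from -93 to -88 and from -34 to -29 and a T-box match from -15 to -10. That of Eomes, also not printed, held none. None of these matches is a measured binding site.

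Other genes of the same program were read from lists. Of 20 other granule and killing genes, 13 were measured, with a median log2 difference of -0.03, against 0.02 over all genes. At an unadjusted p under 0.05, 0 of them were lower and 1 was higher, where 3.46% of all genes were lower and 3.97% higher. That gene was Gzmm, of granzyme M, at 0.37 ± 0.11 (SE). Ctsc, whose product activates granzymes, had 0.21, and Rab27a, of granule docking, 0.12. Stxbp2, of granule fusion, had -0.21. Another 7, among them Gzmk, Fasl and Serpinb9, were not well above background on any array. One of them, Gzme, is listed as 3.24-fold down with p = 0.0235 in the authors' deposited table.

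Among 30 other NK and innate T cell receptors, 7 were measured and 3 were lower at an unadjusted p under 0.05, against 3.46% of all genes. All 3 were kept through USP8ff alone, the group where they were higher, as none was well above background on both USP8ff_CD4Cre arrays. Cd7, a surface protein of T and NK cells, was at -2.40 and -2.00 in USP8ff against -4.28 and -4.20 in USP8ff_CD4Cre (log2 signal). Il2rb, the chain shared by the interleukin-2 and interleukin-15 receptors, had -1.81 and -1.17 against -3.93 and -3.10. For each, 1 of the 2 USP8ff_CD4Cre arrays was well above background. Cd226, an activating adhesion receptor, was at least 1.55-fold lower. The other 4 measured receptors, among them Slamf6 (-0.10), were above background on all 4 arrays, and their groups overlapped. Of the 29 with a probe, 21 were not well above background on any array.

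Of 14 other chemokine and cytokine genes with their receptors, 4 were measured and 0 had an unadjusted p under 0.05, with Il15ra at -0.35, Ccl4 at -0.52, Il2rg at -0.21 and Cxcr6 at 0.13. The chemokine receptor gene Cxcr3 was well above background on USP8ff replicate 2 alone, and the authors' deposited table lists it as 5.28-fold down with p = 0.028. Of 24 other transcription factors, 18 were measured, 1 was lower at an unadjusted p under 0.05 and 0 were higher, against 3.46% and 3.97% of all genes. That factor was Id2, which NK and innate lymphoid cells need, with log2 signals of 0.28 and 0.13 in USP8ff and -0.28 and -0.78 in USP8ff_CD4Cre. Klf2 (0.23), Ikzf2 (0.23) and Stat4 (-0.20) had smaller differences.

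**Figure D3:**
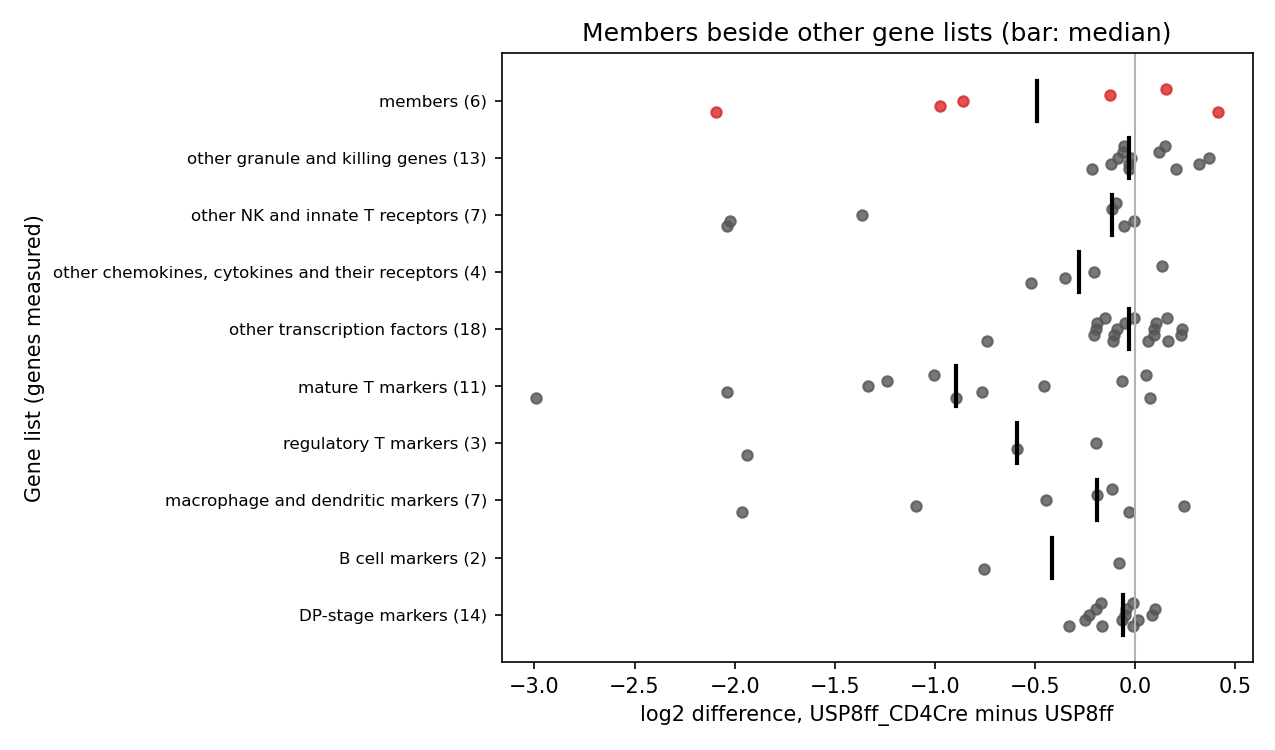
Log2 difference of each measured gene (points) by gene list, with the list median as a bar and the number measured in brackets. The members (red) spread from -2.09 to 0.42, the 13 other granule genes lie around a median of -0.03, and the 11 mature T cell markers have a median of -0.89.

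The profile of Nkg7 over the 4 arrays, centred on its mean, lay nearest to those of Cd7 (distance 0.13 in log2 units), Ccnd2 (0.18), of the cell cycle protein cyclin D2, and Ctss (0.25), of cathepsin S. Their log2 differences were -2.04, -2.00 and -1.96, and the distance and difference of Cd7 rest in part on USP8ff_CD4Cre replicate 1, where it was not well above background. With 4 arrays this measure mainly finds genes with a decrease of similar size.

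Markers of other cells were read beside these results, because a sort can hold a few cells of another kind and, in pooled RNA, fewer such cells cannot be told apart from less RNA per cell. All 7 NK defining markers (Ncr1, Klrb1c, Klra8, Klra4, Klre1, Klri2 and S1pr5) were not well above background on any array of either genotype. Of 8 gamma-delta T cell markers, 5 had a probe and 1 was measured, at a difference of 0.06, with a signal of 0.100 to 0.111 in USP8ff against 0.105 to 0.115 in USP8ff_CD4Cre, in units of the array's 75th percentile. Of 12 mature T cell markers, 11 were measured and 7 were lower at an unadjusted p under 0.05, against 3.46% of all genes. They were led by Il7r, the interleukin-7 receptor chain, at least 5.01-fold lower, Itgae, an integrin chain, at least 4.02-fold, and Gimap4, at least 2.19-fold. Il7r, Itgae and Gimap4 were well above background in USP8ff alone, so they were kept only through the group where they were higher. The summed signal of the 11 mature T cell markers was 161 to 171 in USP8ff and 148 to 149 in USP8ff_CD4Cre. Some of these genes, such as Cd5 and Cd52, are also expressed by DP thymocytes. S1pr1 was their single member not above background on any array. Of 6 regulatory T cell markers, 3 were measured. At an unadjusted p under 0.05, 2 of these were lower (Gpr83 and Icos), against 3.46% of all genes. For Tnfrsf4 (-0.20), the remaining measured marker, both USP8ff_CD4Cre arrays also lay below both USP8ff arrays. Gpr83 fell short of the background limit on USP8ff_CD4Cre replicate 1, so it entered only through USP8ff, where its signal was higher. The summed signal of the 3 was 3.47 to 4.23 in USP8ff and 2.46 to 3.03 in USP8ff_CD4Cre. Foxp3 and Ctla4 were not above background on any array.

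Of 14 macrophage and dendritic cell markers, 7 were measured and 3 were lower at an unadjusted p under 0.05 (Ctss, Mpeg1 and Cd74), against 3.46% of all genes. C1qb had a difference of 0.25, with both USP8ff_CD4Cre arrays above both USP8ff arrays, of which 1 was well above background, and in the other 3 the groups overlapped. The sums of the 7 were 3.68 to 3.92 in USP8ff and 2.72 to 2.87 in USP8ff_CD4Cre, and H2-Aa, C1qa, Adgre1 and Siglech were not above background on any array. B cell markers had 2 measured members, sums of 6.14 to 6.62 and 5.18 to 6.10, and Cd79a, Ms4a1 and Pax5 not above background on any array. Granulocyte (1 measured), erythroid (2 measured) and thymic stroma markers (3 measured) had sums of 0.103 to 0.104, 0.182 to 0.206 and 1.95 to 2.34 in USP8ff, and of 0.0934 to 0.0941, 0.187 to 0.395 and 1.90 to 1.93 in USP8ff_CD4Cre. Among the stroma markers Epcam was lower (-0.47) at an unadjusted p under 0.05. Krt5 was at 0.22, with both USP8ff_CD4Cre arrays above both USP8ff arrays, of which 1 was well above background. The groups of Ccl25, the brightest of the 3, overlapped. The summed signals of the mature T cell, regulatory T cell, macrophage, B cell, granulocyte and thymic stroma lists were lower in both USP8ff_CD4Cre arrays. Those of the gamma-delta and erythroid lists were not. The sums of the other granule, receptor and chemokine lists were lower too, and that of the other transcription factors was higher. A sum follows the brightest genes of its list, such as Cd5 (0.07) and Cd52 (-0.46) among the mature T cell markers. The gamma-delta and granulocyte sums hold 1 gene each, and both measured B cell markers, Cd79b and Blnk, overlapped between the groups. The part of these markers in the members' differences was not tested.

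**Figure D4:**
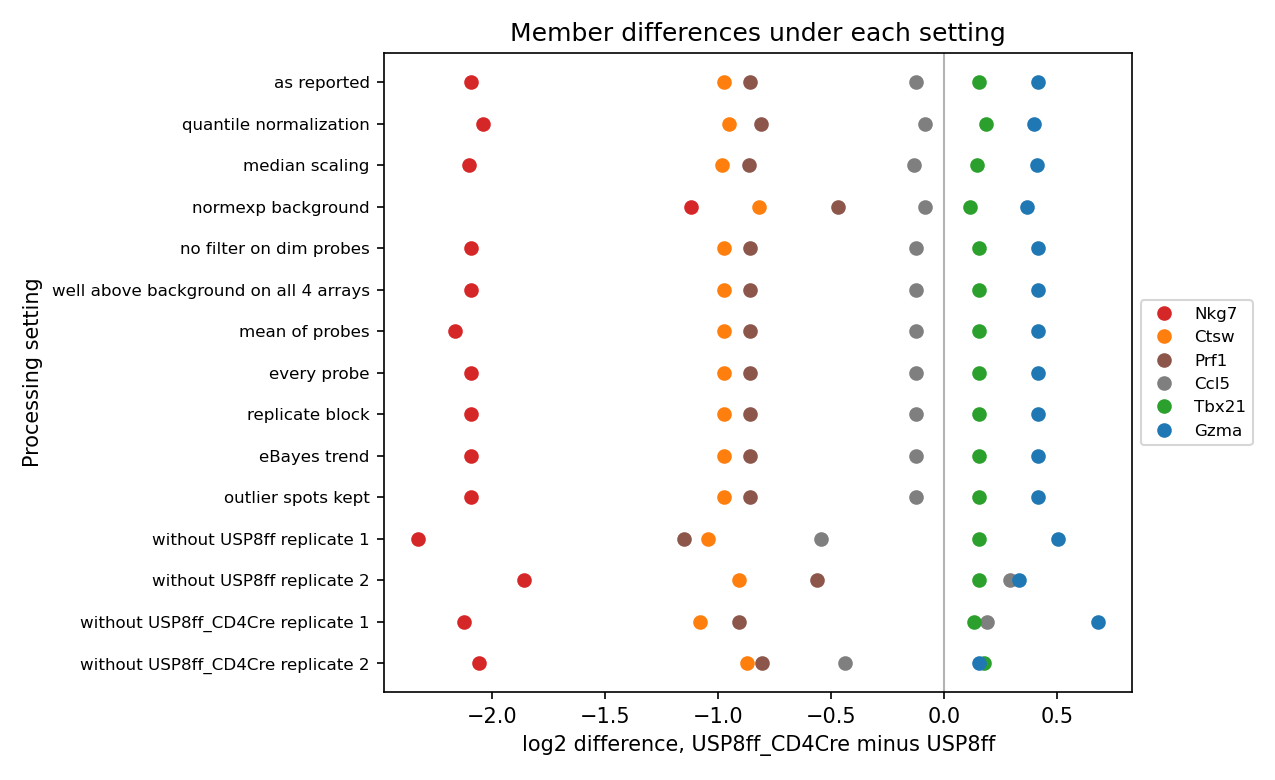
Log2 difference of the 6 compared members as reported and under 14 other settings. Nkg7, Ctsw and Prf1 stay below 0 and Gzma and Tbx21 above 0 under each of them, Nkg7 lies between -2.33 and -1.12, and Ccl5 lies on either side of 0.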

How the data were processed

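RNA of 4 samples was labelled with Cy3, from 500 ng each, for 1-colour Agilent arrays, per the labels' protocols. The deposited scanner files hold spot intensities from Feature Extraction 10.7.3.1 with background subtraction and detrending, per the file headers, and no normalization between arrays. The authors' deposited table gives p-values and absolute fold ratios, from a test that no source used here names. The 4 value columns of another deposited table match no label and were left out.

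Each array's log2 processed signals were centred on the 75th percentile of its 43379 non-control spots. Outlier spots were left out (17 of 41174 probes), 19038 probes were kept as well above background on all arrays of 1 group or the other, and the brightest kept probe stood for its gene, giving 13062 genes. RefSeq accessions named 26690 probes and the rest kept the design name. Genotypes were compared over all genes with limma 3.58.1 in R 4.3.3 (lmFit, eBayes), with Benjamini-Hochberg adjustment. The code was tested on simulated data. Members, lists and motifs were chosen with earlier results of these data known. The text names every member, and up to 4 genes per other list by smallest p; genes named as not above background, as listed by the authors or as marker examples fall outside that rule and were picked with their values in view. Alternatives were other scalings, background corrections, filters, probe rules, a replicate block, an eBayes trend, outlier spots kept and each sample left out. Replicate numbers shared by the groups are not stated to mark a shared litter or day. The SEs, intervals and p-values are limma's, which combine a gene's own spread between pools with the spread of all genes tested. They are not the spread of that gene's pools alone. Figures used matplotlib 3.10.9 in Python 3.11.15.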

Additional observations from a re-analysis of the deposited data

How the results depend on the processing

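Under the 14 alternatives, 0 genes passed an adjusted p of 0.05, with a smallest adjusted p between 0.064 and 0.75. The count of members with each USP8ff_CD4Cre array below each USP8ff array was 3 as reported. It was 5 of 9 with no filter on dim probes, which adds Klrd1 and Gzmb, where 11.6% of all genes had that arrangement. It was 3 to 5 with 1 sample left out (5 without USP8ff replicate 1, with Klrd1 and Ccl5 added), where the share of all genes was 36.1% without USP8ff replicate 1 and 25.1% to 31.3% without one of the others. Nkg7, Prf1, Ctsw, Gzma and Tbx21 kept their signs under all 14, with ranges of -2.33 to -1.12, -1.15 to -0.47, -1.08 to -0.82, 0.15 to 0.68 and 0.11 to 0.19. Ccl5 turned to 0.29 without USP8ff replicate 2 and to 0.19 without USP8ff_CD4Cre replicate 1. Without USP8ff replicate 1 it was -0.54 and without USP8ff_CD4Cre replicate 2 it was -0.44, and Gzma was 0.68 without USP8ff_CD4Cre replicate 1. The cause of these shifts was not tested. With the replicate block the member differences were the same by construction, 0 genes passed and the adjusted p of Nkg7 was 0.11. Deviations of the same-numbered samples correlated at 0.32 across genes, but 2 pairs do not show a pairing. Genes with an unadjusted p under 0.05 split into 518 higher and 452 lower, and into 337 and 485 with median scaling. Signals near background limit Klrd1, Gzmb, Eomes and the second probes of Nkg7 and Ccl5.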

Other observations

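Cxcr6, a chemokine receptor gene of innate-like T cells, differed more between replicate numbers than between genotypes. In USP8ff its log2 signal was 0.46 in replicate 1 and -0.83 in replicate 2, and in USP8ff_CD4Cre it was 0.94 and -1.04. Both Ccl5 probes had the opposite order, with replicate 2 brighter in both groups. On the second probe, not well above background, replicates 1 and 2 had -5.56 and -4.28 in USP8ff, against -6.06 and -4.80 in USP8ff_CD4Cre. Ccl4, another chemokine gene, had -2.41 and -1.50 in USP8ff against -2.45 and -2.50 in USP8ff_CD4Cre, so its difference rested on USP8ff replicate 2.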
